A study of Canis lupus familiaris with 51 samples.

Results

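The genes of interest were 10 skeletal muscle genes, ACTA1, TNNC2, TNNT3, MYH1, MYH2, MYL1, TTN, DES, CKM and MB, measured in canine cutaneous mast cell tumors (MCTs). They were found on the array by gene name or by the description of the probe, and all 10 were present, with 55 of 43603 probes, out of 11690 gene symbols. Their values were not used to choose them. The 51 samples were MCTs, a common skin cancer of dogs, 1 array per tumor, each cut from the middle of the tumor mass, so that RNA of every cell type in the piece was measured together. The labels gave 30 female and 19 male dogs, ages from 3 to 14 years and 15 names of breeds, and 2 dogs had no sex and 2 no age. No label gave a treatment, genotype or tumor class, and no normal skin or muscle was among the samples analysed here, so the comparisons below are between tumors, between sexes, across ages and among breeds. The defining marker of the tumor cells, KIT, the receptor that mast cells need to survive, was well above background on all 51 arrays, with log2 levels from 9.11 to 15.03 and a median of 13.3.

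Skeletal muscle fibers contract when myosin of the thick filament pulls on actin of the thin filament. Calcium starts this by binding troponin on the thin filament. Titin spans the contractile unit and keeps it elastic, desmin ties neighbouring units together, and creatine kinase and myoglobin serve the supply of energy and oxygen. Over much of the body of a dog a thin sheet of striated muscle lies under the skin, and small smooth muscles attach to its hairs. Desmin is also made in smooth muscle, while fast troponin T, fast myosin heavy chains and the M form of creatine kinase are used as marks of striated muscle. In bulk samples, fewer cells of a type and less RNA per cell cannot be told apart.

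A probe of this array is a stretch of 60 bases of a transcript. Some of those that carry the results are shown 5′ to 3′, with positions as the scanner files list them; those files do not name the genome build. The CKM probe, whose capitals mark the stop codon at its end, lay at chr1:113109744-113109803 on the plus strand. It is shown because it was the gene's only probe.

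CKM: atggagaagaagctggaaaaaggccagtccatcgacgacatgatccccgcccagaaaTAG

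The brightest MYL1 probe lay at chr37:21147274-21147333 on the minus strand and is shown for its wide range between tumors.

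MYL1: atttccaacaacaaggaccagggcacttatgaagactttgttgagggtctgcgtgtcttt

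The MYH1 and MYH2 probes with the highest values are shown because these paralogs are close in sequence. They lay at chr5:37777096-37777155 and chr5:37806991-37807050, both on the minus strand. The last 30 bases of the MYH2 probe align with the first 30 of the MYH1 probe, with 24 identical bases (80%). Capitals mark the 6 bases that differ. Probes of this pair may therefore share some signal, and the values of MYH1 and MYH2 are uncertain to that extent.

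MYH1: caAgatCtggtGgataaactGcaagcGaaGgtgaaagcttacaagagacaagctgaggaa

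MYH2: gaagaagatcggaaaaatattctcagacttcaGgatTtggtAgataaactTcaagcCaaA

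The last pair of probes comes from both ends of titin, at chr36:25224092-25224151 toward the 3′ end and at chr36:25437541-25437600, the 5′-most probe, both on the minus strand. They are shown because many tumors well above background at the first were not so at the second.

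TTN, 3′ part: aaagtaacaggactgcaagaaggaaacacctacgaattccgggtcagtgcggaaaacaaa

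TTN, 5′-most: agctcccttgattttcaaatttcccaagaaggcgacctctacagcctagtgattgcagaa

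Levels are log2 processed signals after quantile normalization of the 51 arrays, so that 1 unit is a doubling. "Well above background" is the call of the scanner software for a single spot. The brightest probe of a gene, by its median over the 51 arrays, stands for that gene unless another probe is named. Levels of different probes are not comparable with each other, and each probe is compared only between tumors. Between 59.4% and 74.8% of probes were well above background per array. The array of tumor LM0 stood furthest from the rest, with a median correlation of 0.927 with the other arrays over all probes, and LM0 is also among the highest tumors for most of the genes below. Whether a difference of this array as a whole has a part in its muscle gene values was not tested.

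TNNT3, MYH2 and MB were well above background in the fewest tumors, 8, 11 and 18 of 51. TNNT3 is the fast muscle subunit that ties troponin to the thin filament. In its 8 tumors the brightest probes of the other 9 genes were also well above background. No other tumor could have all 10, since the brightest TNNT3 probe was well above background in these 8 only. CKM and TNNC2 were well above background in all 51 tumors, MYH1 in 47, and MYL1 and DES in 45 each. The 8 tumors were LM0, T53, T106, T9, T80, T122, T103 and T104, and they came from 6 breeds, 7 of 15 slides and 6 of 9 scan sessions. By the labels, 5 of these dogs were male and 2 female, and for T53 no sex was given. The number of member probes well above background, out of 55, was 54 in LM0, 55 in T53, 51 in T106, 52 in T9, 51 in T80, 45 in T122, 52 in T103 and 49 in T104. Tumor T115 came next with 39, and the lowest tumors, T12 and T134, had 8.

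**Figure D1:**
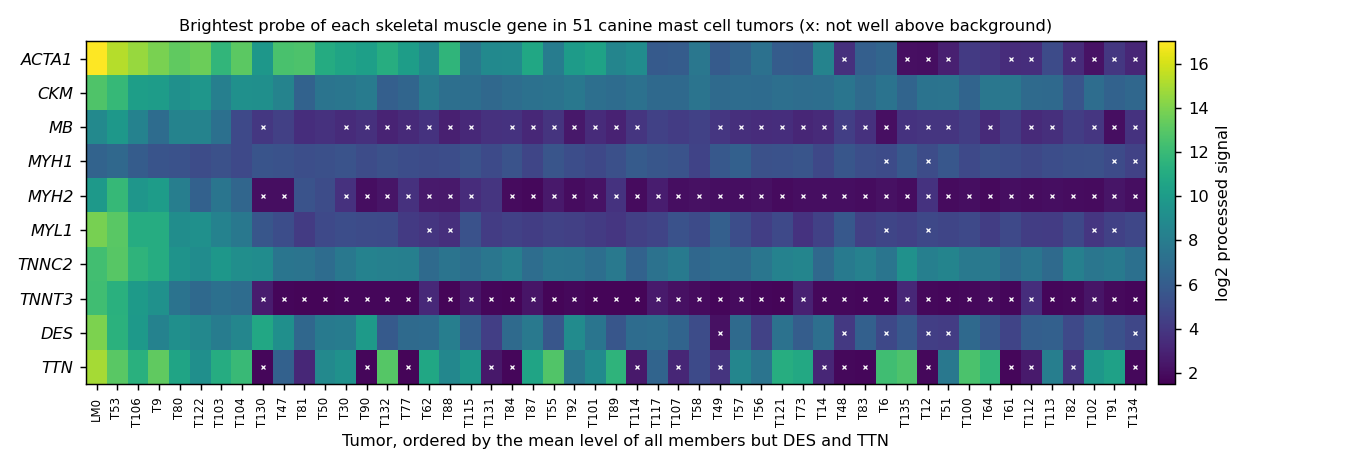
Log2 processed signal (color) of the brightest probe of each gene (rows) in each of the 51 tumors (columns, ordered by the mean level of the 8 genes other than DES and TTN); a white x marks a spot not well above background. TNNT3 is free of an x only in the first 8 columns, while ACTA1, DES and TTN are bright in many others.

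Among the thin filament genes, TNNT3 had its lowest level at 1.69, its median at 1.82 and its highest at 12.2. It read 12.22 in LM0, 11.35 in T53, 9.95 in T106, 9.36 in T9, 7.42 in T80, 7.24 in T103, 6.97 in T104 and 6.77 in T122. The next tumor, T112, read 3.5 and was not well above background, so an interval of 3.27 log2 units without any tumor lay between the 8 tumors and the rest. The other TNNT3 probes were well above background in 9 and 11 tumors.

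ACTA1, the main actin of skeletal muscle thin filaments, showed no such gap. Its level ran from 2.05 to 16.96 with a median of 8.46, and it was well above background in 41 tumors. LM0 read 16.96, T53 15.29, T106 14.64, T9 13.86, T122 13.49, T80 13.19, T104 13.08 and T103 11.72. T81 at 12.67 and T47 at 12.53 lay above T103, the lowest of the 8, and T88 followed closely at 11.66. The 10 ACTA1 probes ordered the tumors nearly alike, with Spearman rho from 0.94 to 0.99 between pairs. A probe that carries the name ACTA1 in the files is described there as beta-actin, a cytoskeletal actin of all cells. It was not used, and its level, 16.9 to 18.1 in the 51 tumors, varied little.

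TNNC2, the calcium-binding troponin subunit of fast fibers, was well above background in all 51 tumors, from 6.37 to 13.0 with a median of 7.76. The highest levels were 12.95 in T53, 12.31 in LM0, 11.61 in T106 and 11.12 in T9, above a gap of 1.41 log2 units to T103 at 9.71. T80 at 9.45, T135 at 9.35, T104 at 9.17, T122 at 9.03 and T130 at 9.01 followed without a clear break. The 5 TNNC2 probes agreed closely, with rho from 0.96 to 0.99.

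Among the thick filament genes, MYL1, a light chain that sits on the neck of fast myosin, ranged from 3.58 to 13.8 with a median of 4.83. LM0 read 13.79, T53 13.02, T106 and T9 11.10 each, T122 9.27, T80 9.1, T103 8.39 and T104 7.68, and the next tumor, T49, read 6.19. The brightest probe was well above background in 45 tumors, but the other 5 were so in 10 to 20, and the order of the tumors differed between probes (rho 0.45 to 0.73). All 6 probes put LM0 and T53 highest.

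MYH2, the heavy chain of fast oxidative fibers, was well above background in 11 tumors, with levels from 1.83 to 11.9 and a median of 2.19. T53 was highest at 11.87, before T9 at 10.05, LM0 at 9.82, T106 at 9.65, T80 at 8.15, T103 at 7.55, T104 at 6.63 and T122 at 6.30. T81 at 5.44 and T50 at 5.10 came next. The MYH2 probe shown above was well above background in 15 tumors and also put T53 first, at 12.44, with T9 at 11.57 and LM0 at 11.32.

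MYH1, the heavy chain of a faster fiber type, gave different pictures by probe. Its brightest probe was well above background in 47 tumors but spanned little, from 4.54 to 6.74 with a median of 5.31, and T57 at 6.23 lay above T106 at 5.99. The listed position of this probe covers 23 of its 60 bases. The MYH1 probe shown above was well above background in 8 tumors: T53 read 12.20, LM0 11.55, T106 8.66, T9 8.00, T103 6.91 and T80 5.68, and the remaining pair were T81 and T115. In T104 it read 3.6 and in T122 3.56, neither well above background. Spearman's coefficient between MYH1 probes went from 0.03 to 0.84, so the probe decides what MYH1 shows.

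**Figure D2:**
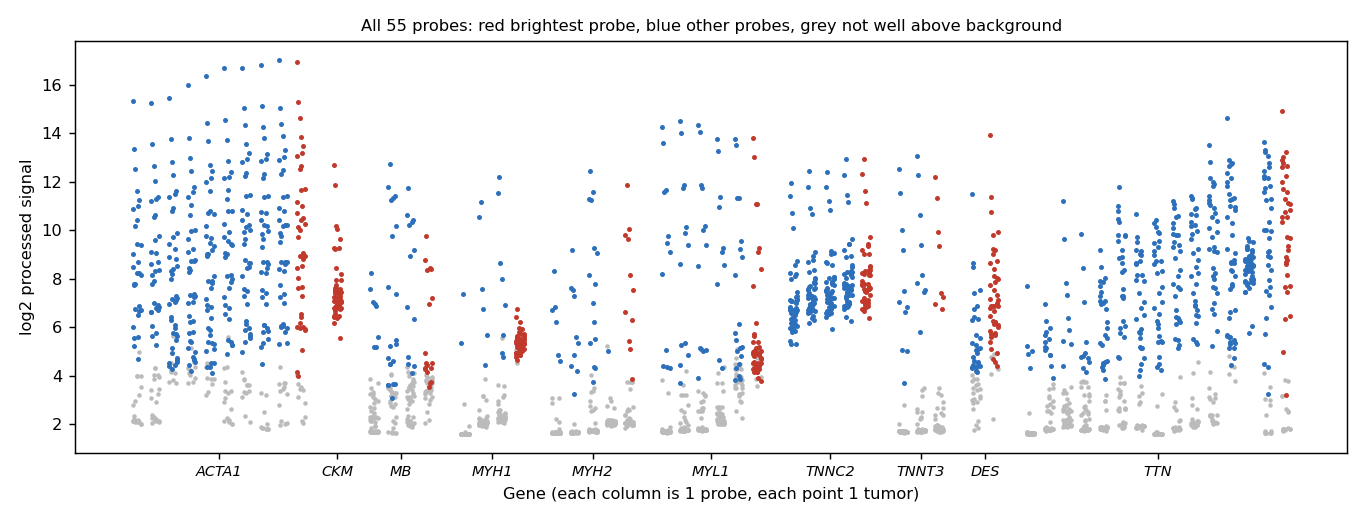
Log2 processed signal of all 55 probes (columns, grouped by gene) in the 51 tumors (points); red is the brightest probe of a gene, blue the others and grey a spot not well above background. ACTA1, TNNC2 and TTN have probes that spread over many tumors, while most probes of MYH1, MYH2 and TNNT3 are grey apart from a few tumors.

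CKM, the muscle form of creatine kinase, which restores ATP from creatine phosphate, was well above background in all 51 tumors, from 5.55 to 12.7 with a median of 7.19. LM0 read 12.70, T53 11.88, T106 10.20, T9 10.08, T122 9.63, T104 9.27 and T80 9.26. T130, at 9.25, was level with T80, and T103 at 8.18 was below T47 at 8.43. MB, myoglobin, which stores oxygen, was well above background in 18 tumors, from 2.06 to 9.75 with a median of 3.77. Its order was T53 at 9.75, LM0 at 8.80, T80 at 8.43, T122 at 8.41, T106 at 8.36, T103 at 7.21 and T9 at 6.97, and then, after 2.04 log2 units without a tumor, T104 at 4.93. T9, with one of the highest TNNC2 levels, was thus the lowest of the 7 tumors above this gap for MB.

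DES, desmin, was well above background in 45 tumors, from 2.20 to 13.9 with a median of 6.82. LM0 read 13.95 and T53 11.37, then T130 10.77, T90 9.94, T106 9.81, T47 9.23, T80 9.19, T92 9.0, T122 8.72, T104 8.64, T9 8.39, T88 8.11, T30 8.03 and T103 8.0. LM0 stood apart at the top, and from T53 down tumors followed each other closely. Tumors with TNNT3 at background lay among the highest.

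LM0 and T53 were the highest pair of tumors for the brightest probe of 8 of the 10 genes, the exceptions being MYH2 and TTN, and for 46 of the 55 probes (83.6%). Over all 10665 genes with a probe well above background on at least 5 arrays, the members among them, the share was 0.516%. The probes that did not follow were 4 of MYH2 and 5 of TTN. LM0 and T53 were picked as the highest tumors by the levels of these same genes. The shares of the members are therefore high by that choice and are descriptions.

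Relations between genes were tested over tumors with 2-sided permutation tests, Benjamini-Hochberg adjusted over 60 relations. MB, TNNC2 and TNNT3 fell into separate clusters of tumors, so pooled values were computed for the 21 pairs of the other 7 genes. By Pearson's r 19 pairs passed an adjusted p of 0.05, and by Spearman's rho 7 passed, all positive. Spearman's coefficient had a median of 0.33 and went from 0.09 to 0.78, against a median r of 0.55, and r without the 2 tumors farthest from the median of the first gene had a median of 0.34. Much of r for these pairs thus rested on a few high tumors. Without LM0 the pairs passing were 15 by r and 5 by rho, and the same counts held without T53.

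ACTA1 and DES rose and fell together over the whole range. Their r was 0.77 (p = 1e-05, the smallest that 100000 permutations can give, adjusted 6.67e-05) and rho 0.78 (adjusted p = 0.0003 in the permutation test, n = 51), and r stayed at 0.71 without the 2 farthest tumors. MYH2 and MYL1 had r = 0.90 but rho = 0.39 (adjusted permutation p = 0.0378), with r = 0.85 without the 2 farthest. CKM and MYL1 had r = 0.89 and rho = 0.54 (adjusted permutation p = 0.00156), with 0.80 without them. ACTA1 and TTN were more loosely tied, at r = 0.32 (adjusted permutation p = 0.0435) and rho = 0.29 (adjusted permutation p = 0.117), and r fell to 0.22 without the 2 farthest tumors.

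Within the 8 tumors with TNNT3 above its gap, TNNT3 went with MYL1 at r = 0.97 (exact permutation test, adjusted p = 0.00223) and rho = 0.86 (exact permutation test, adjusted p = 0.0536). Of 15 relations above the gaps, with 7 or 8 tumors each, 7 passed by r and 2 by rho, both with TNNT3 (with MYH1, rho = 0.95, adjusted p = 0.00978, and with MYH2, rho = 0.88, adjusted p = 0.0435, exact permutation tests). Of 24 relations among the tumors below a gap, 4 passed by r and 1 by rho, MB with MYL1 (n = 44, r = 0.51, rho = 0.48, adjusted permutation p of rho = 0.00978). The clusters were cut from the levels of the genes themselves, and these values hold within them only.

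**Figure D3:**
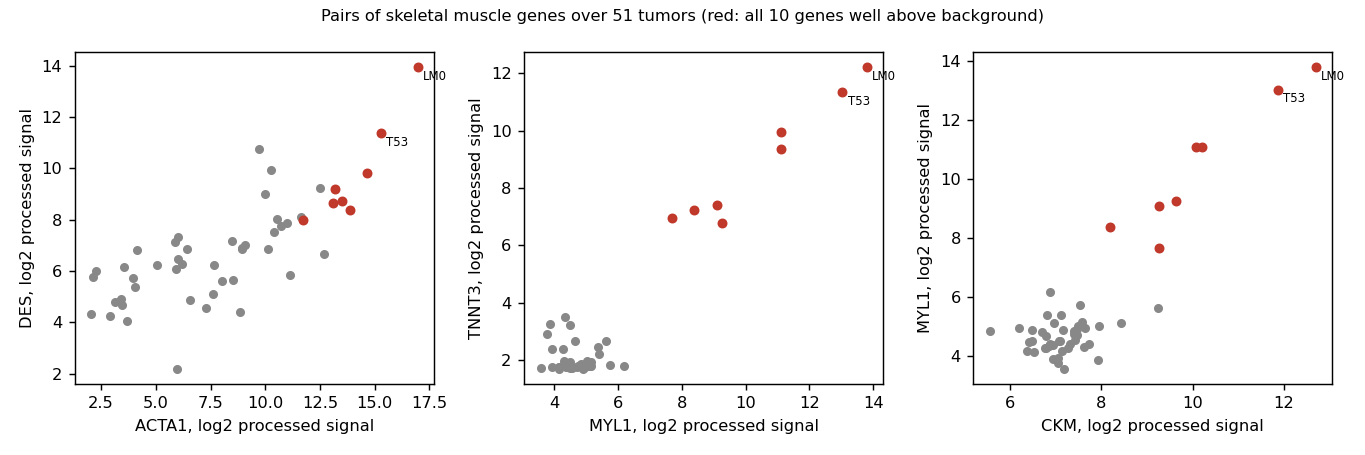
Log2 processed signals of the brightest probes of ACTA1 and DES, MYL1 and TNNT3, and CKM and MYL1, 1 point per tumor (n = 51), with the 8 tumors that had all 10 genes well above background in red. ACTA1 and DES rise together over the whole range, while MYL1 and TNNT3 rise together in the red tumors and TNNT3 is at its floor in the others.

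Titin, the spring of the contractile unit, depended on where it was measured. Its 15 probes lay over 264 kb of chromosome 36, and the transcript is read on the minus strand, so that low positions are at its 3′ end. The 9 probes nearest the 3′ end, the last of them at 110.357 kb from the first, ordered the tumors alike (rho 0.90 to 0.97 over 36 pairs of probes) and were well above background in 26 to 46 tumors. The next probe, at 110.458 kb, was so in 14 tumors and had a rho of 0.74 with the 3′-most probe. For the 9 probes, rho with ACTA1 was 0.19 to 0.29.

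At the 3′ probe shown above, well above background in 37 tumors, LM0 read 13.66 and T53 13.34, but the next were T55 at 13.22, T6 at 13.06, T135 at 12.76, T89 at 12.61 and T132 at 12.45. These 5 tumors were not among the 8, of which T104 read 12.25, T9 12.14, T103 10.94, T106 10.02, T80 9.7 and T122 7.67. At the 5′-most probe, 9 tumors were well above background, the 8 and T132. There LM0 read 11.19, T53 9.66, T106 7.82, T9 7.34, T80 6.38, T122 5.87, T104 5.44 and T103 5.31, while T132 read 4.42, T89 2.47, T6 2.17, T135 1.99 and T55 1.92. Thus T55, close to T53 at the 3′ probe, was at background at the 5′-most one. At the second probe from the 5′ end T55 read 4.31, well above background, while T53 read 8.43 there.

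In all, 28 tumors were well above background at this 3′ probe and not at the 5′-most probe. The second probe from the 5′ end was well above background in 11 tumors, and 12 tumors were so at either. Spearman's coefficient between these 5′ probes and the 9 probes went from -0.04 to 0.30. Between the 5′ probes themselves it was only 0.33. Most of their spots were at background, so these coefficients do not show that the ends order the tumors differently. A probe at 209 kb, described as the Novex-3 isoform, a short form of titin that ends early, was well above background in all 51 tumors. It ranged from 5.75 in T9 to 9.68 in T61 with a median of 8.53. Its rho with the 9 probes was 0.02 to 0.12. LM0 read 7.47, T106 8.58 and T53 9.29.

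**Figure D4:**
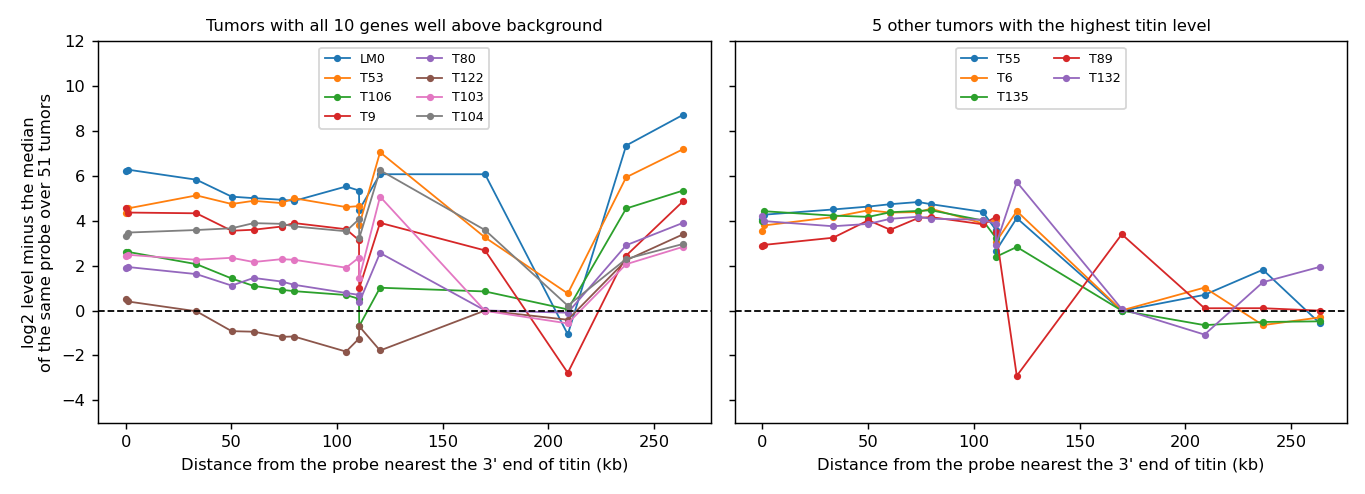
Log2 level of each titin probe minus the median of that probe over the 51 tumors, against its distance in kb from the probe nearest the 3′ end; left, the 8 tumors with all 10 genes well above background; right, the 5 other tumors with the highest level at the probe 50.1 kb from it. Left, the 5′ end is raised in all 8 tumors; right, the probes up to about 110 kb are raised and the 5′-most probe is near its median in most.

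Other genes of striated muscle were read from a list of 54, of which 48 were on the array by name and 44 were well above background on at least 5 arrays. LM0 and T53 were the highest pair for 14 of the 44 (31.8%, against the 0.516% of all genes). They include calcium handling genes (ATP2A1, the calcium pump, and CACNA1S, the voltage sensor), Z-disc genes (ACTN2, ACTN3, TCAP, MYOZ1, CSRP3), filament genes (MYL2, MYL3, MYLPF, MYOM1, TNNT1), CHRNA1 of the nerve-muscle synapse and CKMT2, the mitochondrial creatine kinase. ACTN2, for example, went from 1.77 to 13.2 with a median of 4.70, and TNNT1, the slow fiber troponin T, from 6.87 to 14.6 with a median of 8.76. The other 30 did not have this pair highest, and some were low in both: TNNI2, the fast troponin I, ranked 41 in LM0 and was the lowest of 51 in T53, and PVALB, a calcium buffer of fast fibers, ranked 45 in LM0 and 38 in T53. RYR1, the calcium release channel, ranked 18 and 27. Probes without a gene symbol that are described by a rat troponin I went the other way from TNNI2. They had LM0 and T53 highest and reached 15.7 and 15.2 in LM0. These probes were picked after their values were seen, and whether they measure TNNI2 was not tested.

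The same pair was the highest for no gene of the lists of other cell types. These held 11 smooth muscle, 7 mast cell, 7 keratinocyte, 8 fibroblast, 9 adipocyte, 7 endothelial and 8 leukocyte genes. With a share of 0.516% over all genes, lists this short would seldom hold such a gene, so their lack of one says little. Of the transcription factors that set up muscle cells, 3 of 8 were on the array by name, and MYF5, which acts in muscle precursors, was well above background in 1 tumor, LM0, at 5.18. MYOD1, MYOG and PAX7 were not analysed here.

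Markers of other cell types were set beside the mean level of the 8 genes other than DES and TTN. This mean followed ACTA1 most closely (rho = 0.94). For the others of the 8, each of which is part of the mean, rho went from 0.26 for TNNT3 to 0.69 for MYH2. The median over all 10 genes was 0.41. Over the 51 tumors the median rho was 0.42 for the keratinocyte list, 0.41 for the smooth muscle list, 0.17 for the striated muscle list, 0.18 for the endothelial list, 0.08 for the adipocyte list, -0.13 for the leukocyte list, and -0.26 for both the mast cell and the fibroblast lists, against -0.06 for all 10665 genes. The highest single smooth muscle genes were MYLK at 0.68, ACTG2 at 0.66 and MYH11 at 0.58. All of these share the same arrays and sum to the same tissue piece, and they are descriptions. Their part in the levels of the members was not tested.

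In the 8 tumors themselves these markers did not move as one. The summed keratinocyte level, the log2 of the summed signals of 8 genes, was 19.8 in T104, 19.5 in T103, 19.3 in T80, 18.7 in T122 and 18.5 in T53, but 13.4 in T106, 8.07 in T9 and 8.05 in LM0, in a range of 7.05 to 19.8. KRT5, a keratin of the basal epidermis, read 1.66 in LM0 and 1.80 in T9, near the lowest value of 1.63. The summed smooth muscle level (12 genes) was highest in T81 at 16.8, read 14.5 in LM0, and was lowest of all 51 in T9 at 12.0. KIT read 13.8 in LM0, 13.5 in T53, 13.5 in T106 and 13.7 in T9, near the median of all tumors, and 12.2 in T80, 12.4 in T103 and 11.5 in T104. Other mast cell markers were mixed in LM0. FCER1A, a subunit of the IgE receptor, was the lowest of 51 there at 14.51, CMA1, mast cell chymase, ranked 48 and HPGDS 45. SRGN ranked 23, MS4A2, another subunit of the IgE receptor, 11, and CTSG 3. The summed mast cell level (7 genes) of LM0 ranked 45 of 51.

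Among all symbols other than the members, the 12 most like the mean level of the 8 genes, by rho over 51 tumors among 10655 symbols, were HSD11B1 (0.79), UQCRFS1 (0.78), CD320 (0.77), NDUFA5 (0.75), ATP5B (0.69), GSTA3, PSMB2, FHOD3, UCHL3, MYLK and LAMA1 (0.68 each) and PSMB5 (0.67). That mean followed ACTA1 most closely (rho = 0.94) and several of the 8 genes only loosely. UQCRFS1, NDUFA5 and ATP5B encode subunits of the mitochondrial respiratory chain and ATP synthase. The highest tumors differed from gene to gene: NDUFA5 was highest in T53, LM0 and T104, PSMB5 in LM0, T80 and T90, and HSD11B1 in T50, T77 and T81. A probe without a gene symbol, described by a chicken actin, had a rho of 0.96 and its highest levels in LM0, T53 and T106; it was picked after its values were seen.

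Between the sexes, 26 of 43603 probes passed (0.0596%; limma, Benjamini-Hochberg adjusted p under 0.05), and none of the 55 member probes did, the lowest adjusted p being 0.788. At an unadjusted p under 0.05, 18 member probes passed, all lower in female dogs. That compares with 6.22% of all probes in either direction and 4.29% lower in females. The 18 belonged to MB, MYH1, MYL1, TNNC2 and TTN. In all, 53 of the 55 probes were lower in females, with a median difference of -1.03, while the median over all probes was -0.01. Probes of a gene measure the same RNA and the genes move together in the same tumors, so the 55 are not separate observations.

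The brightest MYL1 probe had a mean of 4.91 ± 1.39 (SD, n = 30) in females and 6.24 ± 2.76 (SD, n = 19) in males, a difference of -1.33 (SE 0.58; limma adjusted p = 0.788). The male values reach from the level of most females up to LM0, and the groups overlap. MB had 3.83 ± 1.06 in females and 4.78 ± 2.04 in males, and TNNC2 7.73 ± 0.95 and 8.45 ± 1.49. TTN differed by -2.0 (SE 1.16) and ACTA1 by -0.97 (SE 1.08). Within the 7 scan sessions that held both sexes, MYL1, MB and ACTA1 were each lower in females in 4 sessions and TNNC2 in 6. The MYL1 difference went from -9.12 to 1.06. These sessions held 1 to 7 females and 1 to 3 males each. The -9.12 came from a session with 1 female and 1 male, LM0.

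**Figure D5:**
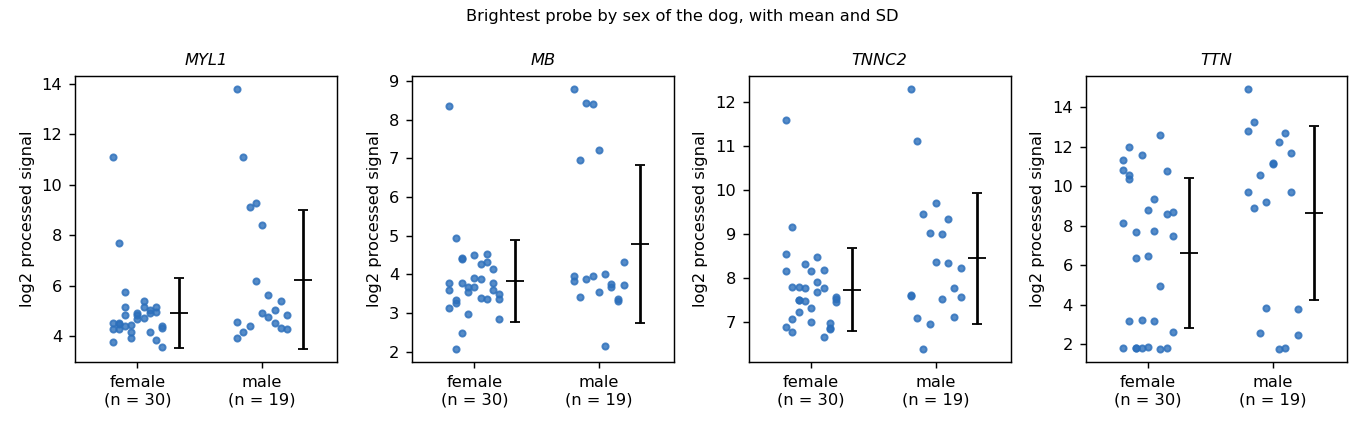
Log2 processed signal of the brightest probes of MYL1, MB, TNNC2 and TTN in 30 female and 19 male dogs, 1 point per tumor, with the mean and SD in black. The means are lower in females by 1.33, 0.95, 0.72 and 2.0 log2 units, and the points overlap; no difference passed the adjusted threshold.

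Across age, in 49 dogs, no probe of the array passed (0%), and none of the 55 member probes passed at an unadjusted p under 0.05 either, against 2.44% of all probes. The slope was below 0 for 44 of the 55, against 50.5% of all probes, but here too the 55 are not separate observations. Among 9 Boxers, 9 Labrador Retrievers and 14 crossbred dogs, 35 probes passed (0.0803%) and no member probe did. None had an unadjusted p under 0.05, against 3.74% of all probes, and the lowest was 0.127. The spread within each breed was wide: ACTA1 was 8.43 ± 3.53 (SD, n = 9) in Boxers with T47 highest, 7.81 ± 4.13 (SD, n = 9) in Labrador Retrievers with T106 highest, and 7.42 ± 2.89 (SD, n = 14) in crossbred dogs with T81 highest. Of the 48 other striated muscle genes none passed in the sex, age or breed tests, with 6, 0 and 4 at an unadjusted p under 0.05.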

How the data were processed

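RNA from a piece of each of the 51 tumors was labelled with Cy3 and hybridized to 1-color Agilent canine arrays. The deposited scanner files give for each spot a processed signal, an intensity from which the authors' scanner software had subtracted background, with flags for spots well above background and for outliers. The authors then quantile-normalized the arrays together with limma. Here the processed signal was taken to log2, quantile-normalized over the 51 arrays, and averaged over spots of a probe (45220 spots, 43803 without controls, 43603 probes); 3124 spots flagged as outliers over all arrays were left out. LOC names (3211) were given a RefSeq symbol for 2519, from the UU_Cfam_GSD_1.0 annotation, used for names only. Sex, age and breed were tested over all probes with limma's lmFit and eBayes with a trend (female minus male; slope per year; F test over 3 breeds), Benjamini-Hochberg adjusted p under 0.05. Relations between members were tested with 100000 permutations or, with under 10 tumors, exactly. Slide (15) and scan session (9), normalization, background correction (normexp, offset 50), probe filters and leaving out each tumor were tried as alternatives. The members, gene lists and tests were chosen with earlier results of these data known. Named genes were the members, the 12 symbols most like them, KIT, and the listed muscle genes by count; other listed genes with values were picked after these were seen. P-values measure the spread between tumors of different dogs; the number of arrays limits the precision. In simulated data of the sex comparison over 43603 probes, changes were set only in probes with an SD under 1. Of these, 88 of 100 probes changed 2-fold and 100 of 100 changed 4-fold were recovered, and 13 unchanged probes were called. The median SD of the 10 members was 2.22, so the simulation does not show how well changes in them would be found. Tools were R 4.3.3, limma 3.58.1, statmod 1.5.0, the package data.table (1.17.8), numpy 2.4.6, scipy 1.17.1, pandas 2.3.3 and matplotlib 3.10.9. Tumor classes of the study were not used, since the labels do not give them.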

Additional observations from a re-analysis of the deposited data

How the results depend on the processing

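No paired analysis was possible because the tumors form 1 group and carry no replicate numbers shared between groups. Under every alternative run, 0 member probes passed in the sex, age and breed tests, and the female minus male difference of each brightest probe kept its sign, also without each tumor in turn (the brightest ACTA1 and MB probes were not tested in the authors' normalized table, where they lack values in some tumors). With normexp, MB moved from -0.95 to -0.37, MYL1 from -1.33 to -0.80, TNNT3 from -1.32 to -0.49, MYH2 from -0.95 to -0.43 and MYH1 from -0.17 to -0.06. TTN moved from -2.0 to -3.12 with scan session as a fixed block, and MYH1 to -0.31 with slide as a fixed block. Without LM0, ACTA1 moved from -0.97 to -0.51, DES from -0.59 to -0.22, CKM from -0.64 to -0.37 and TNNT3 from -1.32 to -0.85, and without T9 MYH2 moved from -0.95 to -0.60. Over all probes the sex count without each tumor in turn was 26 to 29. The breed count over all probes (35) was 4 with slide as a fixed block, 15 with scan session as a fixed block and 22 at an adjusted p under 0.01. Of the 21 pooled pairs, 7 passed by rho; 15 did with the mean over all probes of a gene and 12 with the MYH1 probe of the highest value, an alternative added after seeing the data, as were those without LM0 and without T53. By r, 19 passed, and 11 without the 2 farthest tumors. Below the gaps, 1 pair passed by rho, against 5 with normexp, 0 with the mean over all probes and 2 with the other MYH1 probe; 4 passed by r, against 7 with normexp and 2 without the 2 farthest tumors. The causes were not tested. Most spots of the brightest MYH2 and TNNT3 probes were at background, where differences between tumors are not resolved. The brightest MYH1 probe was well above background in 47 tumors, but the MYH1 probe of the highest value in only 8.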
